A study of Mus musculus with 19 samples.

Results

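Cxcl12, Cxcr4 and Ackr3 form the core of a chemokine axis, a secreted ligand and its receptors. They were taken by gene symbol from the probe annotation of 19 Affymetrix Mouse430+2 arrays of mouse cerebellar cells and tumors. All 3 genes were measured among 18193 genes with a symbol of their own, and all 3 passed the filter on low signals, which left 12148 genes for testing. Where a gene has several probe sets, the one brightest on average is described, 1448823_at for Cxcl12, 1448710_at for Cxcr4 and 1417625_s_at for Ackr3. Cxcl12 had 3 probe sets and the other genes 1 each.

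CXCL12 is a small secreted chemokine that binds to heparan sulfate and attracts cells that carry the receptor CXCR4. In the developing cerebellum the meninges release it, and the granule neuron progenitors beneath them carry CXCR4, which couples to inhibitory G proteins. This pairing is known to hold the progenitors in the external granule layer and to act together with Hedgehog signalling on their proliferation. ACKR3 is an atypical receptor that binds the same ligand, recruits arrestins, and takes CXCL12 into the cell for degradation.

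The arrays fell into 5 groups, all of strain C57BL/6. GNPs were Math1-positive progenitors (4 arrays), NEPs were Nestin-positive progenitors (4 arrays), and NSCs were CD133-positive, lineage-negative progenitors of the cerebellum (3 arrays). GNP tumors came from Math1-CreERT2/Ptch1C/C mice and NEP tumors from Nestin-CreERT2/Ptch1C/C mice (4 arrays each). CreERT2 is a recombinase that works only with an inducing drug, driven here by the Math1 or the Nestin promoter, and Ptch1C is a conditional allele of Ptch1, the receptor that restrains Hedgehog signalling. The cells were neither cultured nor treated before RNA extraction, per the labels' protocols. Age, induction time, pooling and the number of animals are not given in the sources used here, so p-values measure only the spread between these arrays, which may be technical.

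Values are log2 probe set signals, and the median probe set of an array lay between 2.44 and 2.57. A gene whose group mean was under that level is called dim. Numbers in the array titles place GNPs and NEPs in 1 series of arrays and NSCs and both tumor groups in another. RNA spikes added before labelling gave mean signals of 8.94 ± 0.23 (SD, n = 8) and 6.83 ± 0.29 (n = 11) in the 2 series. Series and group cannot be told apart where groups of different series are compared, while the progenitor pair, NEP and GNP, and the tumor pair each lie within 1 series. Atoh1, the mouse name of Math1, ran from 8.77 to 8.96 on GNP arrays and from 2.38 to 5.67 on NEP arrays. On NSC arrays it ran from 8.92 to 8.94, as high as in GNPs, so this group is named here by its label and not as stem cells. Prom1, which encodes CD133, ran from 7.95 to 8.17 in NSCs, from 7.07 to 7.46 in GNPs and from 8.17 to 8.85 in NEPs. Nes, which encodes Nestin, ran from 5.65 to 6.06 in NEPs and from 3.23 to 4.01 in GNPs. Within NEPs, arrays 1 and 2 stood apart from arrays 3 and 4. Across genes, which are not independent replicates, Pearson's r was 0.995 within the first pair, 0.988 within the second and at most 0.943 between them.

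The 3 genes had unlike patterns over the groups, and the 150 bases before the start of each, from the RefSeq promoter table (GRCm38.p6), are shown for comparison, with every match to a searched motif in capitals. The windows lie at chr6:117168385-117168534 (plus strand) for Cxcl12, chr1:128592300-128592449 (minus strand) for Cxcr4 and chr1:90203830-90203979 (plus strand) for Ackr3.
Cxcl12: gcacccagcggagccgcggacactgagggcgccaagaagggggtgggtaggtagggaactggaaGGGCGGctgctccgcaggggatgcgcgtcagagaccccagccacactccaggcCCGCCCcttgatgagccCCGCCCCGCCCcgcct
Cxcr4: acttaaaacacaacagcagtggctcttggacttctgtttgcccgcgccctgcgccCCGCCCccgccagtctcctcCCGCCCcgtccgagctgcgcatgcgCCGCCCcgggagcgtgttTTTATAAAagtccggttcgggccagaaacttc
Ackr3: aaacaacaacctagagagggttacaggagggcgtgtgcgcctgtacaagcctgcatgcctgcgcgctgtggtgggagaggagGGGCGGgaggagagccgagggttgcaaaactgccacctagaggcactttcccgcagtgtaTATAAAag

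The motifs were the TATA box as TATAAA and the GC box as GGGCGG, each on both strands. Among 32851 promoter windows of this length, 7.57% held the TATA motif and 28.6% the GC box. The Cxcl12 window, with a GC content of 72.7%, held 4 GC boxes, of which the last pair share a base, and no TATA motif in these letters. The Cxcr4 window, at 63.3% GC, held 3 GC boxes and the TATA motif, read on both strands in overlapping letters 32 and 30 bases before the start. Ackr3, at 58% GC, held 1 GC box, and a TATA motif 8 bases before the start. These matches describe the letters and were not tested as binding sites.

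Cxcl12, the ligand, was highest in the CD133-positive group and on NEP arrays 1 and 2, and lowest in the tumors. Its group means were 9.84 ± 0.018 in NSCs (SD, n = 3), 9.22 ± 2.76 in NEPs (n = 4), 7.52 ± 0.38 in GNPs (n = 4), 6.82 ± 0.45 in NEP tumors (n = 4) and 5.88 ± 0.18 in GNP tumors (n = 4). No neighbouring pair in this order passed the test. A difference counted as called when limma's test across all 19 arrays gave an adjusted p below 0.05.

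On NEP arrays 1 to 4 the log2 signal of Cxcl12 was 11.37, 11.44, 8.38 and 5.67. The first pair lay above every other array of the study, and NEP 4 lay below every GNP array. On GNP arrays 1 to 4 it was 7.33, 7.22, 7.44 and 8.07. The 3 NSC arrays gave 9.83, 9.86 and 9.83, between the NEP pair at the top and all other arrays. GNP tumor arrays 1 to 4 had 6.06, 5.90, 5.62 and 5.94. NEP tumor arrays 1 to 4 had 6.29, 6.61, 7.29 and 7.07, each above every GNP tumor array. The SD in NEPs was the widest of any group for this gene, and it raises the error of every Cxcl12 comparison, since the fit shares 1 spread over the groups.

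**Figure D1:**
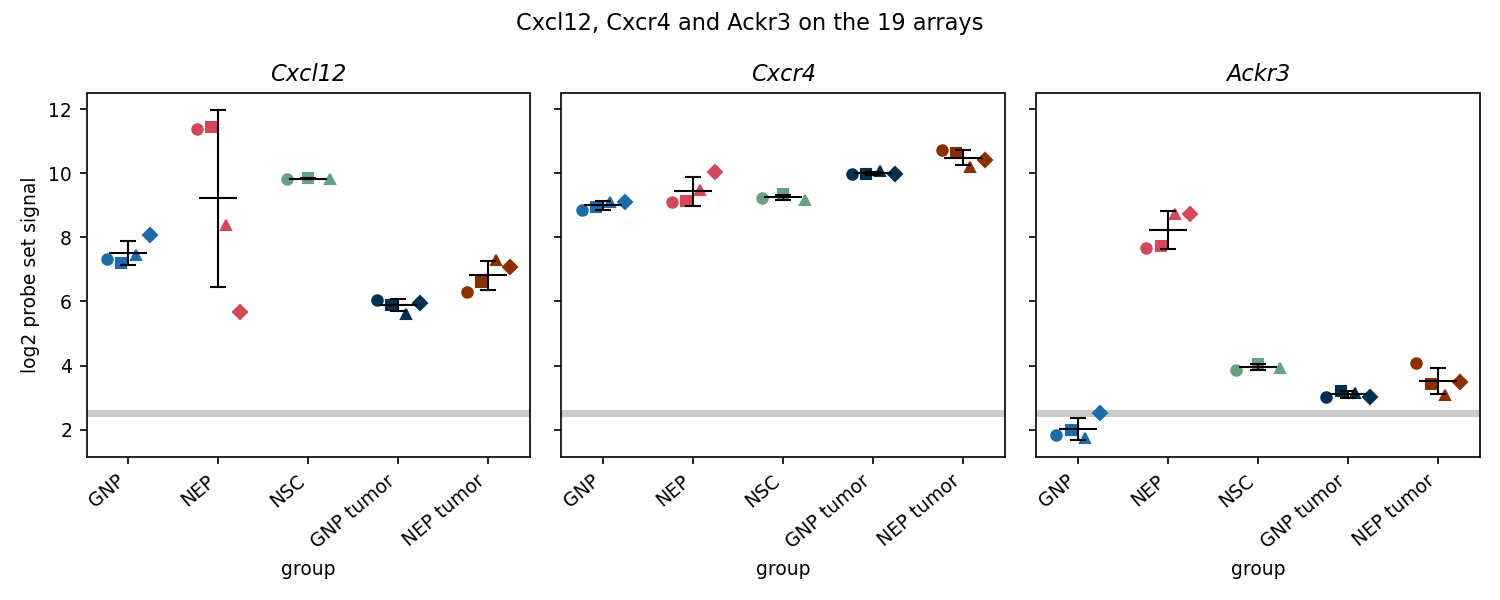
Log2 probe set signal of Cxcl12, Cxcr4 and Ackr3 (vertical axis) on each of the 19 arrays by group (horizontal axis), with group mean and SD as bars, marker shapes for replicates in order, and the range of array medians as a grey band. Cxcl12 spread from 5.67 to 11.44 in NEPs, Cxcr4 lay between 8.84 and 10.73 on all arrays, and Ackr3 stood at 7.66 to 8.75 in NEPs and at 4.09 or less elsewhere.

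The other probe sets of Cxcl12 gave part of the same picture. Probe set 1417574_at read 6.55, 6.51, 3.12 and 2.82 on NEP arrays 1 to 4, and from 2.06 to 2.45 on GNP arrays. It was again higher on the first NEP pair than on the second, but here NEP 4 stayed above all GNP arrays. In NSCs it ran from 4.38 to 5.49, and in both tumor groups it was dim, from 1.66 to 2.17. Probe set 1439084_at lay under the array median on all 19 arrays, from 1.45 to 1.95, and was not tested.

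Within NEPs, and in NSCs against GNPs, Cxcl12 was high where the markers of meningeal and fibroblast cells were high, but not over all arrays. The median of this list of 15 genes, all measured, was 7.95, 8.45, 3.47 and 3.20 on NEP arrays 1 to 4, between 6.07 and 6.37 in NSCs, between 1.88 and 2.16 in GNPs, between 3.94 and 4.31 in GNP tumors and between 2.67 and 2.81 in NEP tumors. GNPs had the lowest medians and yet more Cxcl12 than NEP 4 or most tumor arrays. Between NEPs and GNPs all 14 list genes tested were called higher in NEPs, where 29.6% of all genes tested were called higher and 39.9% lower. Between the tumors 1 was called higher and 1 lower, where 15.5% of all genes were called higher and 8.1% lower. The medians of this meningeal and fibroblast list lay lower in NEP tumors than in GNP tumors, the opposite order to Cxcl12. The collagen gene Col1a2 of this list read 11.50, 11.48, 9.13 and 8.59 on the NEP arrays and between 3.12 and 3.97 on the GNP arrays. Foxc1, a transcription factor of the meninges, read 7.14, 7.11, 3.00 and 3.20 on the NEP arrays and at most 1.75 on the GNP arrays, where it was dim. Pericyte and mural cell markers (11 genes) had medians of 7.46, 7.36, 4.92 and 4.94 on the NEP arrays against 2.10 to 2.72 in GNPs. Microglia and macrophage markers (13 genes measured of 14) had medians of 8.71, 8.70, 3.54 and 2.03 on the NEP arrays against 1.71 to 1.82 in GNPs, and endothelial markers 5.67, 5.84, 3.27 and 4.19 against 2.60 to 3.10. Between the tumors, endothelial markers leaned higher in NEP tumors, the order of Cxcl12, from 0.11 (Eng) to 1.32 (Cdh5), with none called. Of the pericyte and mural markers Kcnj8 (2.20) and Abcc9 (1.48) were called higher, and the others tested ran from -0.53 (Anpep) to 0.19 (Rgs5). Microglia and macrophage markers ran from -1.30 (C1qc) to 0.27 (P2ry12), with none called. The part of these cell types in the Cxcl12 signal was not tested, and in bulk RNA fewer cells of a type and less RNA per cell cannot be told apart.

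**Figure D2:**
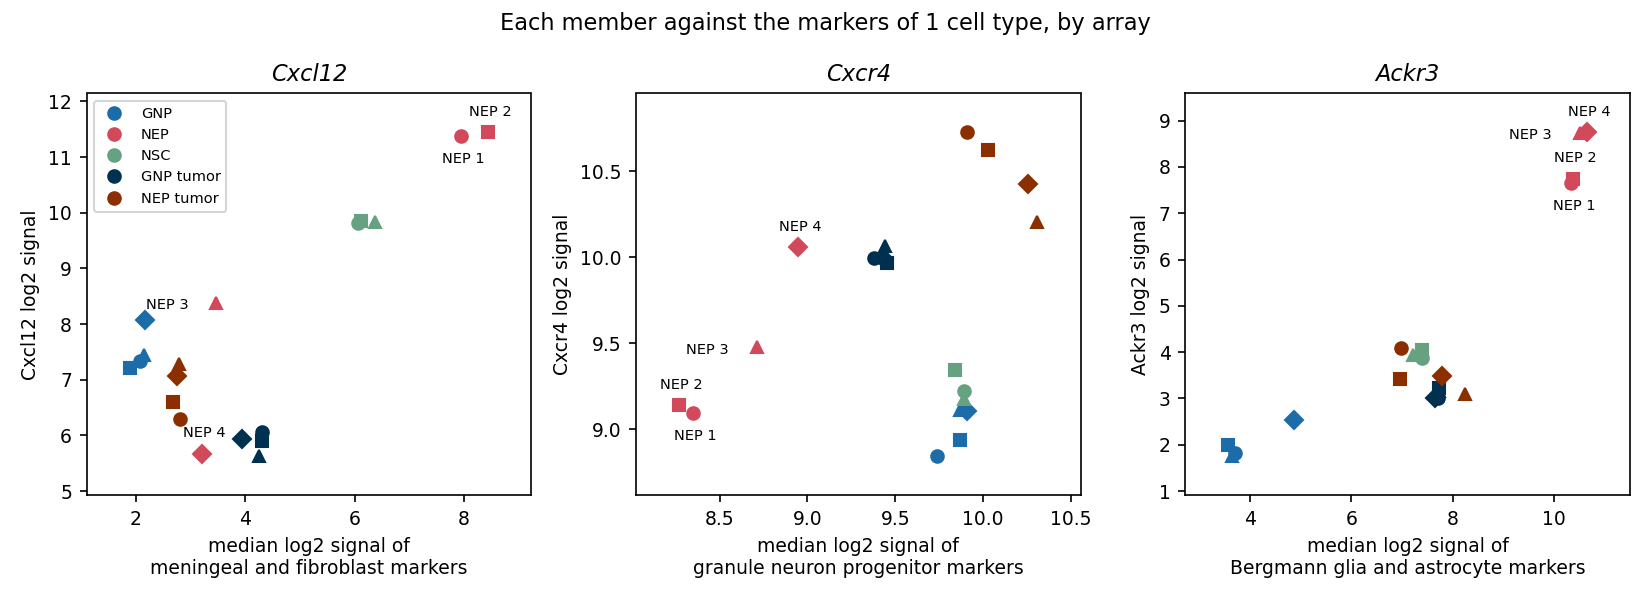
Log2 signal of each gene (vertical axis) against the median log2 signal of a marker list (horizontal axis) on the 19 arrays, coloured by group with marker shapes for replicates, the NEP arrays named. Cxcl12 is set against meningeal and fibroblast markers, with NEP 1 and 2 at medians of 7.95 and 8.45, Cxcr4 against granule neuron progenitor markers, and Ackr3 against Bergmann glia and astrocyte markers, where the NEP arrays sit together at 10.34 to 10.65.

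Cxcr4, the signalling receptor, was bright on every array and rose in the tumors. Its group means were 10.50 ± 0.23 in NEP tumors, 10.004 ± 0.043 in GNP tumors, 9.44 ± 0.44 in NEPs (n = 4 each), 9.25 ± 0.087 in NSCs (n = 3) and 8.998 ± 0.13 in GNPs (n = 4). In this order NEP tumors differed from GNP tumors and GNP tumors from NEPs, while the steps from NEPs to NSCs and from NSCs to GNPs did not pass the test.

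The GNP arrays 1 to 4 gave Cxcr4 signals of 8.84, 8.94, 9.11 and 9.10. On the NEP arrays the signals were 9.09, 9.14, 9.48 and 10.06, with the first pair inside or next to the GNP range and NEP 4 as bright as the GNP tumors. NSC arrays gave 9.22, 9.35 and 9.18. GNP tumor arrays lay close together at 9.99, 9.97, 10.07 and 9.99. NEP tumor arrays read 10.73, 10.63, 10.20 and 10.43, all above the GNP tumors. In NEPs the arrays with the most Cxcl12 had the least Cxcr4, and the arrays with the least Cxcl12 had the most. In NEP tumors array 1 had the most Cxcr4 and the least Cxcl12, and array 3 the reverse. GNPs showed no such order, since GNP 4 had the highest Cxcl12 and nearly the highest Cxcr4. NEP tumor arrays 1 to 4 also differed in the endothelial marker Cldn5, at 5.40, 5.44, 7.24 and 6.85. The macrophage marker Csf1r read 4.76, 5.03, 6.55 and 5.81 there, while the fibroblast marker Dcn stayed between 4.76 and 4.98. The part of such cells in the order of the NEP tumor arrays was not tested.

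Granule neuron progenitor markers (11 genes measured of 12) had medians of 8.35, 8.27, 8.71 and 8.95 on NEP arrays 1 to 4, in nearly the same order as Cxcr4. Their medians ran from 9.73 to 9.91 in GNPs, from 9.84 to 9.89 in NSCs, from 9.38 to 9.45 in GNP tumors and from 9.91 to 10.31 in NEP tumors. The medians were thus lower in NEPs than in GNPs, while the mean of Cxcr4 was higher in NEPs. GNP tumors had more Cxcr4 than GNPs, across the array series, and the granule markers differed in no common direction between them. Of 11 tested, 1 was called higher and 2 lower, where 49.8% of all genes were called. The median difference per gene was 0.17 although the array medians were lower, and Atoh1 ran from 9.38 to 9.45 in GNP tumors. Among NEP tumors the marker medians were 9.91, 10.02, 10.31 and 10.25 on arrays 1 to 4, the reverse order of Cxcr4. The part of granule lineage cells in the Cxcr4 signal was not tested.

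Ackr3, the scavenging receptor, was bright in NEPs and low in every other group. It had means of 8.22 ± 0.60 in NEPs (n = 4), 3.95 ± 0.088 in NSCs (n = 3), 3.52 ± 0.42 in NEP tumors (n = 4), 3.10 ± 0.10 in GNP tumors (n = 4) and a dim 2.02 ± 0.35 in GNPs (n = 4). The steps from NEPs to NSCs and from GNP tumors to GNPs passed the test. The steps from NSCs to NEP tumors and from NEP tumors to GNP tumors did not.

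On the 4 NEP arrays Ackr3 read 7.66, 7.75, 8.73 and 8.75. The GNP arrays read 1.83, 1.99, 1.75 and 2.53, with 3 of them under the array median. NSC arrays gave 3.87, 4.04 and 3.93. GNP tumor arrays gave 3.01, 3.22, 3.15 and 3.02, and NEP tumor arrays 4.09, 3.41, 3.09 and 3.49, so the tumor groups overlapped. As with Cxcr4, the NEP arrays with the most Cxcl12 had the least Ackr3. No tumor array exceeded 4.09 for Ackr3, and none of them came near a NEP array.

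The Bergmann glia and astrocyte markers (12 genes, all measured) followed Ackr3 on progenitor arrays. Their medians were 10.34, 10.37, 10.52 and 10.65 on NEP arrays 1 to 4, between 3.57 and 4.88 in GNPs and between 7.22 and 7.39 in NSCs. The order of the NEP arrays was that of Ackr3, and GNP 4, with the highest median of its group, had the highest Ackr3 there. The tumors departed from this order, since medians of 7.65 to 7.73 in GNP tumors and 6.96 to 8.24 in NEP tumors lay around or above those of NSCs, while Ackr3 was lower in GNP tumors than on any NSC array. Neural stem cell and radial glia markers (10 genes) had medians of 9.26 to 9.61 in NEPs, 4.53 to 5.31 in GNPs, 7.83 to 7.87 in NSCs and 5.89 to 6.54 in the tumors. How far glial cells account for the Ackr3 signal was not tested.

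The first comparison within a series asked how the Nestin-positive progenitors differ from the Math1-positive ones. Among all genes tested, 69.5% were called, so a call alone is common here. Ackr3 was higher in NEPs by 6.20, SE 0.25, adjusted p = 8.29e-13, a size larger than that of 99.6% of the genes tested. GNPs were dim for Ackr3, so these values have background on 1 side. With each GNP array set to no less than its array median, Ackr3 was at least 53.2-fold higher in NEPs. Each NEP array lay above every GNP array. Cxcr4 was higher by 0.44, SE 0.16, adjusted p = 0.0232, or 1.36-fold, a difference larger than that of 47.3% of the genes tested. One NEP array, NEP 1, lay below GNP 3 and GNP 4, so the groups overlapped. Cxcl12 differed by 1.70, SE 0.85, adjusted p = 0.0849, with a 95% interval from -0.10 to 3.50, and did not pass.

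Both the Cxcl12 and the Cxcr4 result depended on which NEP arrays were used. Without NEP 4, Cxcl12 was called at 2.88 (adjusted p = 0.000136) and Cxcr4 lost its call at 0.24 (adjusted p = 0.0863). Cxcr4 also lost it without GNP 1 (0.39, adjusted p = 0.0647). With NEP arrays 1 and 2 only, a choice made after seeing the data, Cxcl12 differed by 3.89 (adjusted p = 2.19e-10) and Cxcr4 by 0.12 (adjusted p = 0.387). With NEP arrays 3 and 4 only, Cxcl12 turned to -0.49 (adjusted p = 0.39) and Cxcr4 rose to 0.77 (adjusted p = 0.000348). The split into pairs also follows Cxcl12 itself, so its adjusted p-values on either pair only describe these arrays. Ackr3 was called with either pair, at 5.68 and 6.71. Probe set 1417574_at called Cxcl12 at 2.54 (adjusted p = 0.00206).

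The tumor groups, which carry the same Ptch1 allele and differ in the promoter that drives CreERT2, were compared within their series, where 23.6% of genes were called. Of the genes called, 65.6% were higher in NEP tumors, or 55.6% after a second quantile normalization. Cxcr4 was higher in NEP tumors by 0.49, SE 0.16, adjusted p = 0.0384, a 1.41-fold difference with no overlap between the groups. That call was lost when any of 7 of the 8 tumor arrays was left out, all but NEP tumor 3, at adjusted p from 0.0612 to 0.113 and differences from 0.41 to 0.51. Cxcl12 differed by 0.94, SE 0.85, adjusted p = 0.479, although each NEP tumor array lay above each GNP tumor array. Fitted on the tumor arrays alone, without the wide spread of the NEP arrays, it was called (0.94, adjusted p = 0.00772), while probe set 1417574_at gave 0.31 (adjusted p = 0.785) in the fit of all groups. Ackr3 differed by 0.42, SE 0.25, adjusted p = 0.248, with a 95% interval from -0.11 to 0.95, and the groups overlapped.

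The difference between these comparisons was itself tested, and 61.9% of genes were called. For Ackr3 the lineage difference in tumors minus that in progenitors was -5.78, SE 0.35, adjusted p = 4.93e-10, a size that also includes the dim GNP level. For Cxcr4 the change in lineage difference was 0.048, SE 0.23, adjusted p = 0.866, with a 95% interval from -0.44 to 0.54. For Cxcl12 it was -0.76, SE 1.2, adjusted p = 0.597, with an interval from -3.30 to 1.78 that spans changes in either direction, and it was called without NEP 4 (-1.95, adjusted p = 0.025).

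**Figure D3:**
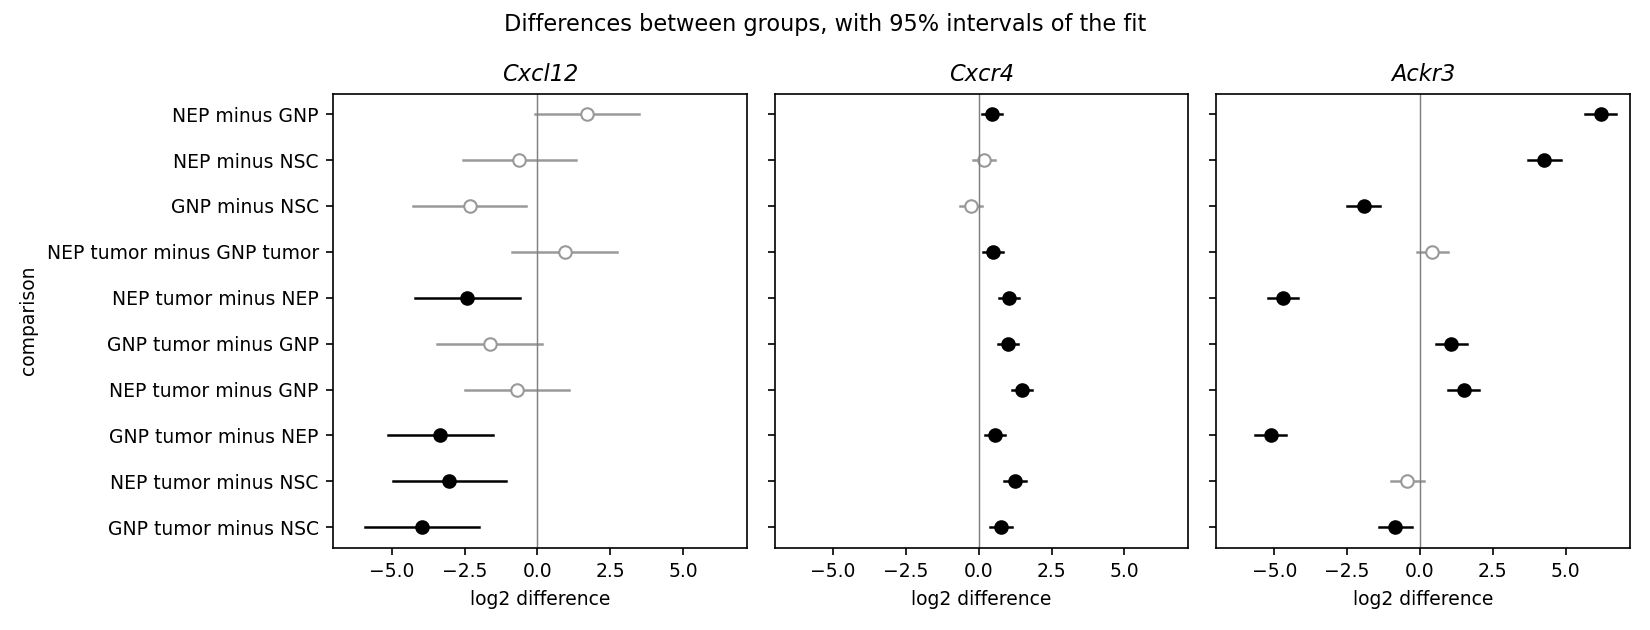
Log2 differences of Cxcl12, Cxcr4 and Ackr3 (horizontal axis) in the 10 comparisons between groups (vertical axis), with 95% intervals of the fit, black and filled where called and grey and open where not. Intervals are widest for Cxcl12, Ackr3 has its largest values in the comparisons with NEPs (6.20 against GNPs), and Cxcr4 is above 0 in all 6 comparisons of a tumor with a progenitor group.

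Tumors were also set against the progenitors whose marker drives their Cre, a comparison across the array series. NEP tumors had lower Ackr3 than NEPs, with a difference of -4.70, SE 0.25, adjusted p = 3.62e-11, where 68.9% of genes were called. Cxcl12 was lower too, at -2.40, SE 0.85, adjusted p = 0.0193, and Cxcr4 was higher by 1.05, SE 0.16, adjusted p = 2.47e-05. The Cxcl12 call was lost without NEP 1 (-1.68, adjusted p = 0.0803) or NEP 2 (-1.66, adjusted p = 0.0812), and with NEP arrays 3 and 4 only the difference was -0.21 (adjusted p = 0.727). GNP tumors had higher Ackr3 than GNPs, by 1.08, SE 0.25, adjusted p = 0.00179 (at least 1.53-fold against the array median), and higher Cxcr4, by 1.01, SE 0.16, adjusted p = 7.58e-05, where 49.8% of genes were called. Cxcl12 differed by -1.64, SE 0.85, adjusted p = 0.123. Every GNP tumor array lay below every GNP array, and the fit of these groups alone called it (adjusted p = 2.14e-05), though 1417574_at, dim in both groups, gave -0.42 (adjusted p = 0.613).

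The tumor groups were compared with the other progenitors as well, and these comparisons share their arrays with those above. NEP tumors exceeded GNPs in Cxcr4 by 1.5 (adjusted p = 1.15e-06) and in Ackr3 by 1.5 (adjusted p = 0.000109), with Cxcl12 at -0.70 (adjusted p = 0.525), where 47.4% of genes were called. Since GNPs were dim for Ackr3, it was at least 2.05-fold higher in NEP tumors against the array median. GNP tumors set against NEPs had Ackr3 at -5.12 (adjusted p = 1.12e-11), Cxcl12 at -3.34 (adjusted p = 0.00232) and Cxcr4 at 0.56 (adjusted p = 0.00592), with 67.8% of genes called. Cxcr4 was thus called higher in both tumor groups than in either progenitor group, across the array series in each case. GNP tumors and NEPs overlapped, however, with NEP 4 at 10.06 above every GNP tumor array but GNP tumor 3 (10.07). That call was lost by an exact permutation test and with NEP arrays 3 and 4 only.

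The CD133-positive NSCs were compared with each group, again across the array series except for the tumors. NEPs exceeded NSCs in Ackr3 by 4.27, SE 0.27, adjusted p = 8.91e-10, where 58.4% of genes were called, and did not pass for Cxcr4 (0.19, adjusted p = 0.363) or Cxcl12 (-0.62, adjusted p = 0.578). Without NEP 4 the Cxcl12 difference was 0.56 (adjusted p = 0.399). GNPs, dim for Ackr3, had less of it than NSCs (-1.93, adjusted p = 3.85e-05, at least 2.75-fold against the array median, with 36.3% of genes called). Cxcl12 at -2.32 (adjusted p = 0.0578) and Cxcr4 at -0.25 (adjusted p = 0.283) did not pass. No GNP array reached the Cxcl12 level of an NSC array. Within the second series, Cxcl12 was lower than in NSCs in NEP tumors (-3.02, SE 0.92, adjusted p = 0.0131, 44.3% of genes called) and in GNP tumors (-3.96, SE 0.92, adjusted p = 0.00191, 47.6% called). Cxcr4 was higher than in NSCs by 1.25 (adjusted p = 2.53e-05) in NEP tumors and by 0.75 (adjusted p = 0.00205) in GNP tumors. Ackr3 was lower in GNP tumors than in NSCs (-0.85, adjusted p = 0.0155), a call lost without NSC 2 (-0.80, adjusted p = 0.0534), and NEP tumors did not pass (-0.43, adjusted p = 0.211).

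Other ligands and receptors of the axis were few. Of a list of 7 that includes the members, 5 passed the filter on low signals. Cxcl11, a further ligand of ACKR3, stayed dim at 1.65 to 1.89 in the group means, and so did Adm, the peptide adrenomedullin that ACKR3 also binds, at 1.84 to 2.36. Mif, a cytokine that can bind CXCR4 and CD74, was bright throughout, with means from 10.53 in GNP tumors to 11.15 in NSCs, and was not called between NEPs and GNPs (-0.11, adjusted p = 0.219) or between the tumors (0.20, adjusted p = 0.0709). Cd74, the MIF receptor and the invariant chain of antigen-presenting cells, differed most. It read 7.87, 8.20, 8.07 and 8.04 in GNP tumors and 5.86, 5.71, 5.56 and 5.41 in NEP tumors, a difference of -2.41, SE 0.51, adjusted p = 0.00273. Microglia and macrophage markers had medians of 4.94 to 5.18 in GNP tumors and 3.56 to 4.48 in NEP tumors, and their part in the Cd74 signal was not tested. On NEP arrays Cd74 read 5.91, 5.11, 2.66 and 2.69, so its call against GNPs (1.23, adjusted p = 0.0402) came from the first pair and turned to -0.19 (adjusted p = 0.158) with arrays 3 and 4 only. It was also lost when any array other than NEP 3 or NEP 4 was left out (0.62 to 1.26).

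Receptor signalling genes, from the G proteins to the actin regulators, showed no common direction. Of 26 listed, 22 were measured and 20 tested, and 7 were higher and 4 lower in NEPs than in GNPs, with a median difference of 0.01 against -0.11 over all genes, of which 29.6% were called higher and 39.9% lower. Gnai2, the inhibitory G protein subunit that CXCR4 couples to, was higher by 1.40 (SE 0.083, adjusted p = 1.74e-10), while Gnai1 and Gnai3 were not called (0.19 and 0.08). Stat3, a transcription factor activated by JAK kinases, read 9.07, 8.98, 8.73 and 8.94 on NEP arrays and 6.44, 6.73, 6.59 and 6.74 on GNP arrays, a difference of 2.30, SE 0.15, adjusted p = 5.69e-10. Pxn, the focal adhesion adaptor paxillin, was higher by 1.16 (adjusted p = 2.94e-05). Elmo1, which with DOCK proteins activates Rac in cell migration, was lower (-2.02, SE 0.22, adjusted p = 5.37e-07), as was Gng2, a G protein gamma subunit (-1.25, adjusted p = 2.46e-08).

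Between the tumors 5 of these 20 genes were higher and 1 lower in NEP tumors, where 15.5% of all genes were called higher and 8.1% lower. The median difference was 0.07, and that of all genes 0.05. Gnai1, another inhibitory G protein subunit, read 9.24, 9.09, 8.70 and 8.87 on NEP tumor arrays and 7.86, 7.83, 7.93 and 7.89 on GNP tumor arrays, higher by 1.10, SE 0.10, adjusted p = 2.49e-06. Elmo1 was higher by 0.82 (adjusted p = 0.0141), opposite to its direction between the progenitors. Gnai2 was not called (0.02, adjusted p = 0.875).

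Genes that switch off or turn over the receptors were tested in 15 of 16 cases. In NEPs 7 were higher and 4 lower than in GNPs, with a median of 0.32. The share called was near the 69.5% of all genes, of which 29.6% were higher and 39.9% lower. Grk3, a kinase that phosphorylates active receptors, was higher by 1.502 (SE 0.13, adjusted p = 2.33e-08), and Arrb1, the arrestin that then binds them, by 1.42 (adjusted p = 1.29e-07). The other arrestin, Arrb2, was lower (-0.44, adjusted p = 5.24e-05). Rgs3 and Rgs2, which speed the shut-off of G proteins, were higher by 1.77 (adjusted p = 2.13e-09) and 1.65 (adjusted p = 1.91e-08). Between the tumors 1 gene was called higher, the ubiquitin ligase Itch that tags CXCR4 for degradation (0.31, adjusted p = 0.0221), and 3 lower, Rgs4 (-0.42), Arrb2 (-0.24) and Grk6 (-0.23), again near the 23.6% called over all genes.

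Genes that cleave CXCL12 or hold it at the cell surface were higher in NEPs in 8 of 12 cases tested, with 1 lower and a median of 0.56, out of 17 listed, beside 29.6% higher and 39.9% lower over all genes. Sdc4, a heparan sulfate proteoglycan, read 7.66, 7.33, 5.25 and 6.59 on NEP arrays and from 2.16 to 2.62 on GNP arrays, where it was dim, higher by 4.35 (SE 0.41, adjusted p = 8.24e-08) and at least 18.3-fold against the array median. Mmp2, a protease that can inactivate CXCL12, read 7.18, 6.80, 3.31 and 3.72 on NEP arrays and was dim in GNPs, higher by 2.87 (SE 0.62, adjusted p = 0.000638) and at least 6.66-fold. Like Cxcl12 and the meningeal and fibroblast markers, it was high on the first NEP pair, and the part of those cells in its signal was not tested. Mmp14, a membrane protease, was higher by 1.67 (adjusted p = 3.05e-12) and Sdc3, a neural syndecan, by 1.67 (adjusted p = 3.74e-09), both alike on all 4 NEP arrays. Glypican Gpc1 was lower (-0.42, adjusted p = 0.00834). Between the tumors limma called 0 of the 12, with 4 at an unadjusted p below 0.05, where 15.5% of all genes were called higher and 8.1% lower. With NEP arrays 3 and 4 only, the counts against GNPs were 7 higher and 0 lower for this list, 7 and 5 for receptor signalling, and 5 and 4 for desensitisation and turnover, where 27.1% of all genes were called higher and 33.2% lower.

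**Figure D4:**
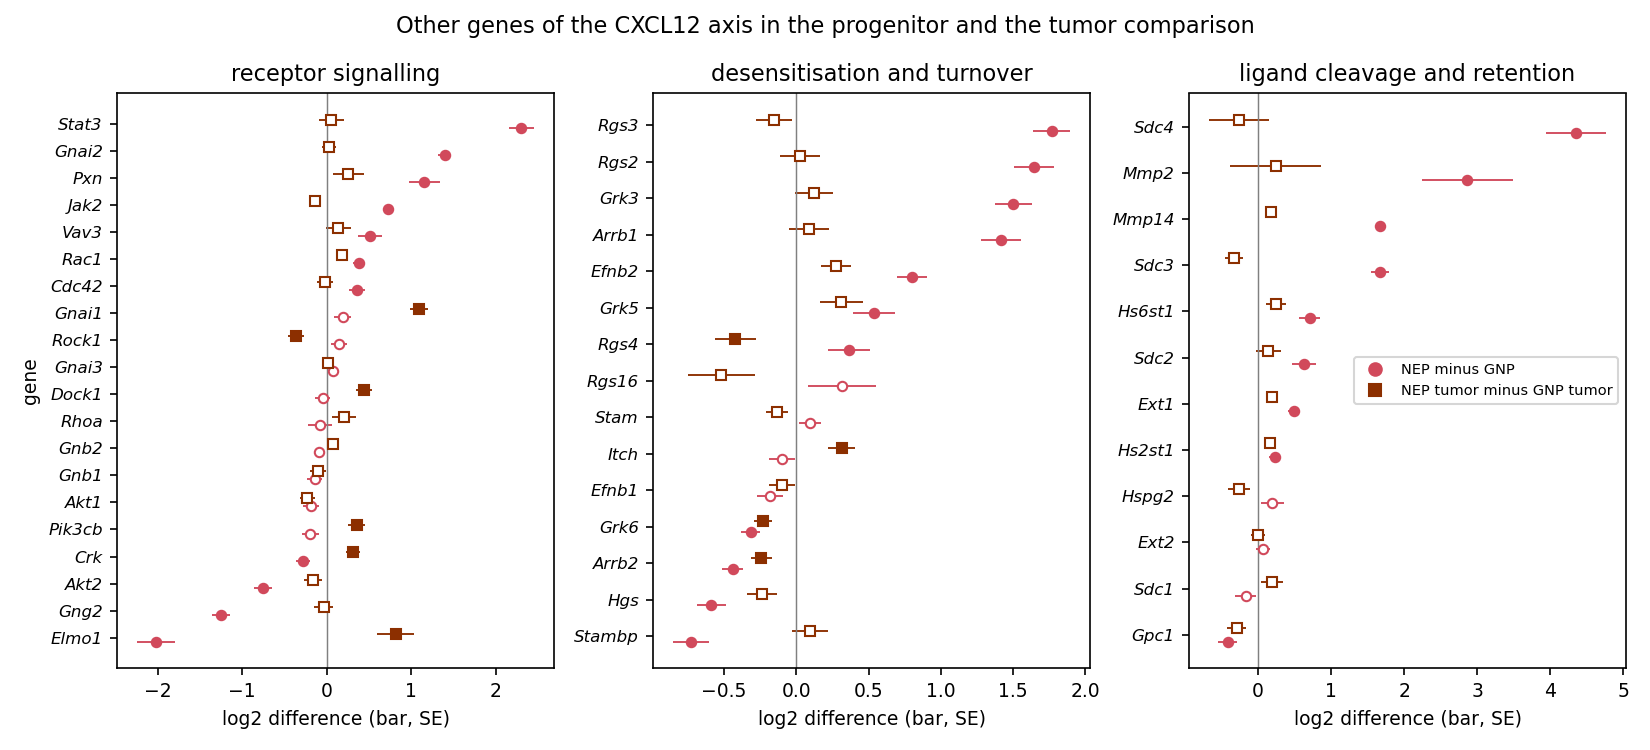
Log2 differences with SE bars (horizontal axis) of the other axis genes tested (vertical axis), for NEP minus GNP (circles) and NEP tumor minus GNP tumor (squares), filled where called. Sdc4 at 4.35 and Mmp2 at 2.87 are the largest among the progenitors, Elmo1 has the lowest value there at -2.02, and most tumor differences lie near 0 and are open, with Gnai1 at 1.10 the largest of the tumor differences plotted. GNPs were dim for Sdc4 and Mmp2.

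Among 50 other chemokines and chemokine receptors, 48 were measured and 23 tested, and NEPs were higher in 13 and lower in 2, with a median of 0.93, beside 29.6% higher and 39.9% lower over all genes. Pf4, a platelet and macrophage chemokine, read 9.61, 9.49, 4.89 and 2.89 on NEP arrays and from 1.87 to 2.62 on GNP arrays, higher by 4.41 (SE 1.02, adjusted p = 0.00107). Ccl3 and Ccl9, macrophage chemokines, were higher by 3.51 (adjusted p = 0.00947) and 3.11 (adjusted p = 0.00624), Cx3cr1, the fractalkine receptor of microglia, by 3.12 (adjusted p = 0.00832), Ccl6 by 2.47 (adjusted p = 0.00736) and Ccr1 by 2.35 (adjusted p = 0.0119). All 6 were high on NEP arrays 1 and 2 (Cx3cr1 is itself on the marker list), the arrays with microglia and macrophage medians of 8.71 and 8.70. Apart from Cx3cr1, these genes were dim in GNPs, so their differences have background on 1 side: they were at least 18.3-fold (Pf4), 7.17-fold (Ccl3), 5.27-fold (Ccl9), 4.31-fold (Ccl6) and 1.97-fold (Ccr1) higher against the array median. Ccr1 passed the filter on low signals only through NEP 1, NEP 2 and GNP tumor 1, so its test rests on the arrays that let it in. The Ccr1 call was lost without NEP 2 (1.71, adjusted p = 0.0512), and without NEP 1 its difference was 1.53. With NEP arrays 3 and 4 only, 4 of the 23 were higher and 2 lower, beside 27.1% and 33.2% of all genes. In the tumors 2 were called higher and 3 lower in NEP tumors than in GNP tumors, with a median of -0.40, beside 15.5% and 8.1% of all genes. Ccl8, a monocyte attractant, read 3.54, 3.91, 3.66 and 3.82 in GNP tumors and 2.07, 2.01, 2.21 and 2.56 in NEP tumors (-1.52, SE 0.12, adjusted p = 2.12e-07). It was dim in NEP tumors, passed the filter on low signals mainly through the GNP tumors, and was at least 2.33-fold higher there. Cxcl2, a neutrophil attractant, differed by -2.23 (SE 0.69, adjusted p = 0.0267), a call lost without GNP tumor 2 or 3 or NEP tumor 3 or 4 (-1.96 to -2.24).

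The genes whose level over the 19 arrays was most like each member's were taken by Pearson's r, as a description over arrays that share groups and series. For Cxcl12 they were Frmd6 (r = 0.944), Col6a3, a collagen (0.941), Ccm2l, Arhgap29 and Itga8, an integrin, each with a lower mean in both tumor groups than in GNPs, NEPs or NSCs. For Cxcr4 the first was Ptch1 (0.956), itself a target of Hedgehog signalling, which read from 10.17 to 10.38 in GNPs, 10.27, 10.33, 10.58 and 10.90 on NEP arrays 1 to 4, from 11.18 to 11.24 in GNP tumors and from 11.39 to 11.59 in NEP tumors. Where the Ptch1 probe set lies relative to the conditional part of the allele was not determined, so it does not check the deletion. Gm9222, D430042O09Rik, Ier5 and Sowaha followed. For Ackr3 they were Mcc, Pdlim3, Sfxn5, Cdc42ep1 (0.986) and Amot, all highest in NEPs.

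With the group means removed, likeness rests mostly on the NEP arrays for Cxcl12, whose SD was 2.76 there and at most 0.45 elsewhere. The 5 most like genes were then Csf1r, a receptor of microglia and macrophages (0.988), Mrc1, a mannose receptor of perivascular and meningeal macrophages, Dcn, the fibroblast proteoglycan decorin (0.985), the complement gene C1qa and the protease gene Ctss. These genes mark macrophages or fibroblasts, and none of the 5 was among those taken over all arrays. For Cxcr4 they were Rasl11b, Mtbp, Mettl26, Etfbkmt and Zfp637, and for Ackr3 Braf, Plcxd3, Bcl11b, Lsm14b and Cdh4, with r between 0.90 and 0.93 for these 10 genes.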

How the data were processed

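The files hold log2 probe set signals of 19 arrays that the authors made by RMA. The submitters' processing notes name Expression Console for this step, without its version or the log base, and base 2, the usual output of RMA, was assumed. RNA was extracted with Trizol and 100 ng amplified with the Ambion WT Expression kit, per the labels' protocols. RMA summarises probes by a robust fit and scales the arrays to each other, so levels are relative within these arrays. Groups came from the sample labels. Of 45037 probe sets other than controls, 34945 with 1 symbol were used. Each gene took its probe set with the highest mean, and was tested where at or above the array median on at least 3 arrays. R 4.3.3 and limma 3.58.1 (lmFit and eBayes, 5 group means, all arrays) gave 11 comparisons, two-sided, with Benjamini-Hochberg adjustment over 12148 genes and calls at an adjusted p below 0.05. Named genes of the lists were those called in either comparison within an array series with a difference of at least 1, the 6 largest per list, besides genes whose role is given. The members and lists were chosen with earlier results of these data known. List members with no probe set of their own symbol are not analysed here. The fit was tested on simulated data. Alternatives were the probe set, filter, scaling, variance trend, array weights, block, groups fitted and each array left out. Arrays were not paired by replicate number in the main fit. In the titles, GNP and NEP arrays of the same number carry consecutive serial numbers. Deviations of same-numbered arrays had correlations from -0.16 to 0.07 between NEPs and GNPs. Over all pairs of groups compared, some across the array series, they ran from -0.18 to 0.29. With so few arrays per group, and the NEP arrays split into pairs, these values cannot exclude pairing. The number of arrays limits the precision.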

Additional observations from a re-analysis of the deposited data

Results flagged for a closer look

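Within groups of 4 arrays, 168 were checked for an array far from the other 3, and chance flags about 1 in 20 such groups. Cxcl12 probe set 1439084_at, dim on all arrays, stood at 1.64 on NEP 1 and at 1.95 on NEP tumor 3, each above its group. Among signalling genes, Gnai2 stood at 10.10 on GNP tumor 3, Gng2 at 9.76 on GNP tumor 4 and Gnai1 at 8.68 on GNP 4. Ccl3 was low on GNP tumor 3 at 4.09, and Ccl8 low on GNP 1 at 1.72. The median of meningeal and fibroblast markers was low on GNP tumor 4 at 3.94. The median of Bergmann glia and astrocyte markers was high on GNP 4 at 4.88, the array with the highest Ackr3 (2.53) and Cxcl12 (8.07) among GNPs, and low on GNP tumor 4 at 7.65. The lineage difference of Ackr3 differed between tumors and progenitors by -5.78, by the test of that difference.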

How the results depend on the processing

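Most values kept their direction and their side of the threshold: outside the subsets of arrays named next, 678 values for the 3 genes and for counts of calls did, while 24 gained a call, 21 lost one, 8 turned and 2 counts moved. With the subsets of NEP and NEP tumor arrays, which were chosen after seeing the data, 63 kept both, 5 gained a call, 6 lost one and 6 turned. Ackr3 changed least. Array weights, which give NEP 3 and NEP 4 low weight, called it between the tumors (0.38) and between NEP tumors and NSCs (-0.47), and leaving out arrays moved GNP tumors against NSCs from -0.89 to -0.80. Array weights raised the calls to 7037 for GNPs against NSCs (from 4409) and to 5646 between the tumors (from 2861).

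Cxcl12 depended on the NEP arrays. For NEPs against GNPs it was called with array weights (3.29), the mean of its probe sets (1.38), 1417574_at (2.54) and NEP arrays 1 and 2 only (3.89), and turned with NEP arrays 3 and 4 only (-0.49); leaving out arrays gave 0.96 to 2.88. Against NSCs, NEPs gave 0.90 with array weights, 1.57 with NEP arrays 1 and 2 only and -2.82 with 3 and 4 only, and -1.37 to 0.56 with arrays left out. GNPs against NSCs were called with array weights (-2.39), the mean of probe sets (-1.73), only those groups (-2.32) and 1417574_at (-2.84). GNP tumors against GNPs were called with array weights (-1.60), and at -1.64 with only those groups and with a replicate block. At -1.64 they also passed the exact permutation test (p = 0.0286, unadjusted unlike limma's and the smallest it can give). Between the tumors the same held, with array weights (1.13) and at 0.94 by the exact permutation test, only those groups and the replicate block (adjusted p = 0.0226). NEP tumors against GNPs were called at -0.70 with only those groups or a replicate block. NEP tumors against NEPs (-2.40) lost the call by the exact permutation test (p = 0.171), with only those groups, with a replicate block, with NEP arrays 3 and 4 only (-0.21) and with NEP tumor arrays 3 and 4 only (-2.04); leaving out arrays gave -3.58 to -1.66. GNP tumors against NEPs (-3.34) lost it by the exact permutation test (p = 0.114), and NEP tumors against NSCs with NEP tumor arrays 3 and 4 only (-2.66). The change in lineage difference was called with array weights (-2.16), 1417574_at (-2.23) and NEP arrays 1 and 2 only (-2.95), was 1.43 with 3 and 4 only, and ran from -1.95 to -0.020 with arrays left out.

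For Cxcr4, NEPs against GNPs (0.44) lost the call by the exact permutation test (p = 0.0857), with only those groups, a replicate block, array weights (0.17) and NEP arrays 1 and 2 only (0.12), with 0.24 to 0.56 on leaving out arrays. Between the tumors leaving out arrays gave 0.41 to 0.59, and NEP tumor arrays 3 and 4 only gave 0.31, where the call was lost. NEPs against NSCs gave -0.047 with array weights, -0.13 with NEP arrays 1 and 2 only, 0.52 with 3 and 4 only and -0.013 to 0.31 with arrays left out. GNPs against NSCs were called with array weights (-0.22), and GNP tumors against NEPs lost the call by the exact permutation test (0.56) and with NEP arrays 3 and 4 only (0.24). The uncalled change in lineage difference was -0.069 after a second quantile normalization, 0.37 and -0.28 with either NEP pair only, -0.13 with NEP tumor arrays 3 and 4 only, and -0.068 to 0.25 with arrays left out. Cd74 turned to -0.19 between NEPs and GNPs with NEP arrays 3 and 4 only. The cause of these changes was not tested. The replicate block changed no other call of the 3 genes. Genes near the array median have little signal over background, which limits Ackr3 in GNPs and the smaller probe sets of Cxcl12.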
